A study of Mus musculus with 9 samples.

Results

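The step from serum to serum-free medium with 2 kinase inhibitors was followed in E14, an established line of mouse embryonic stem cells grown on gelatin. Of the 9 libraries in the series, the 6 from these culture media were compared. The ES group (3 libraries) was grown in DMEM with fetal bovine serum, non-essential amino acids, β-mercaptoethanol and leukemia inhibitory factor (LIF). The 2iLIF group (3 libraries) was grown in N2B27, a defined serum-free base, with the inhibitor pair known as 2i and with LIF. The other 3 libraries, from expanded potential stem cell medium, entered no comparison here. No genetic change is named in the labels, so the groups differed in the whole medium: serum, base and inhibitors changed together and cannot be told apart. Of 24819 genes in the table, 11747 reached 1 FPKM (fragments scaled to transcript length and to the library total) in at least 3 of the 6 libraries and were tested.

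The 2i pair blocks MEK, the kinase that activates ERK, and GSK3, the kinase that marks β-catenin for destruction. FGF4 made by embryonic stem cells activates ERK and primes them to differentiate, while LIF acts through STAT3 to hold them undifferentiated. Stabilised β-catenin enters the nucleus and acts with TCF and LEF factors at WNT target genes. Cells in 2i and LIF are called ground state or naive because their expression resembles that of the early epiblast of the blastocyst, whereas serum cultures are a mixture with cells leaning towards later epiblast.

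Library totals ran from 546636 to 600728 FPKM, with 11155 to 11385 genes at 1 FPKM or more. No read counts were given, and the steps between low values put the depth at roughly 20.5e6 to 25.6e6 fragments a library, where a single fragment over 1 kb of transcript gives 0.0391 to 0.0487 FPKM. The first principal component held 87.5% of the variance and separated the media, and the second (8.68%) set replicate 1 of both media apart from the other libraries. Nothing in the labels says whether the libraries of a medium are separate cultures, so the p-values measure the spread among these libraries only. Pou5f1, Sox2, Nanog and Zfp42, used as markers of pluripotent cells, were abundant in all 6 libraries. Genes on chromosome 1 had a median log2 difference of -0.28 (638 genes, 66.8% of them below 0). Those on chromosome 14 were at -0.18 (407 genes), against 0.05 over the other autosomes. Chromosome 16, among the latter, had a median of 0.18 (364 genes), and X had 0.23 (391 genes). The part of these shifts in the result of any gene there was not tested. On chromosome 16 lie, for example, Etv5, Dppa4, Gap43 and Atp6v1a, and on X Lamp2, Tmsb4x, Dusp9 and Ebp. Of the genes below, Inhbb, Gbx2, Lefty1, Tfcp2l1, Prdm14, Nr5a2, Wnt6, Mael, Bok, Col3a1 and Fn1 lie on chromosome 1, and Slc39a14, Slc7a7, Enox1, Tpt1, Spry2, Fgf17, Bmp4, Klf5, Otx2, Zic2, Tnfrsf19, Tdh, Piwil2, Sox7, Loxl2 and Mmp14 on chromosome 14.

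Levels below are FPKM in each library, in the order replicate 1, 2 and 3, or the mean ± SD (n = 3 libraries). Differences are 2iLIF minus ES of log2(FPKM + 1), ± SE, a scale on which changes of weakly expressed genes look smaller than they are. To be called, a gene needed a limma adjusted p below 0.05 (Benjamini-Hochberg over all 11747 genes) and a difference of 1 or more in either direction, and only called genes are said to have risen or fallen. For the named genes whose call held under every alternative setting, the limma adjusted p lay between 1.1e-07 and 0.00378, and the libraries of the media did not overlap.

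In all, 938 genes were higher in 2iLIF (7.99% of those tested) and 875 were lower (7.45%), with a median log2 difference of 0.03 over all tested genes. Together 15.4% were called. These shares are the background against which each gene group below is set. Of the genes that rose, 212 were under 1 FPKM in every ES library, and of those that fell, 306 were under 1 FPKM in every 2iLIF library. The change thus included many genes that were near silent in one of the media. In all 388 tested genes passed the filter through 2iLIF alone and 521 through ES alone, and such genes had to differ. They made up 5 of the tested neural genes, 6 of those of the matrix, 4 of the imprinted and 3 of the piRNA genes through ES, and 5 of the retinoic acid and 3 of the one-carbon genes through 2iLIF. With the adjusted p alone and no limit on size, 35.2% were higher and 31.6% lower, so the limit on size decides most calls. The libraries of the media did not overlap for 37.1% of tested genes on the higher and 33.5% on the lower side. They are a background for statements on overlap below. All 1813 called genes were without overlap, so for a called gene the lack of overlap adds nothing to the call.

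**Figure D1:**
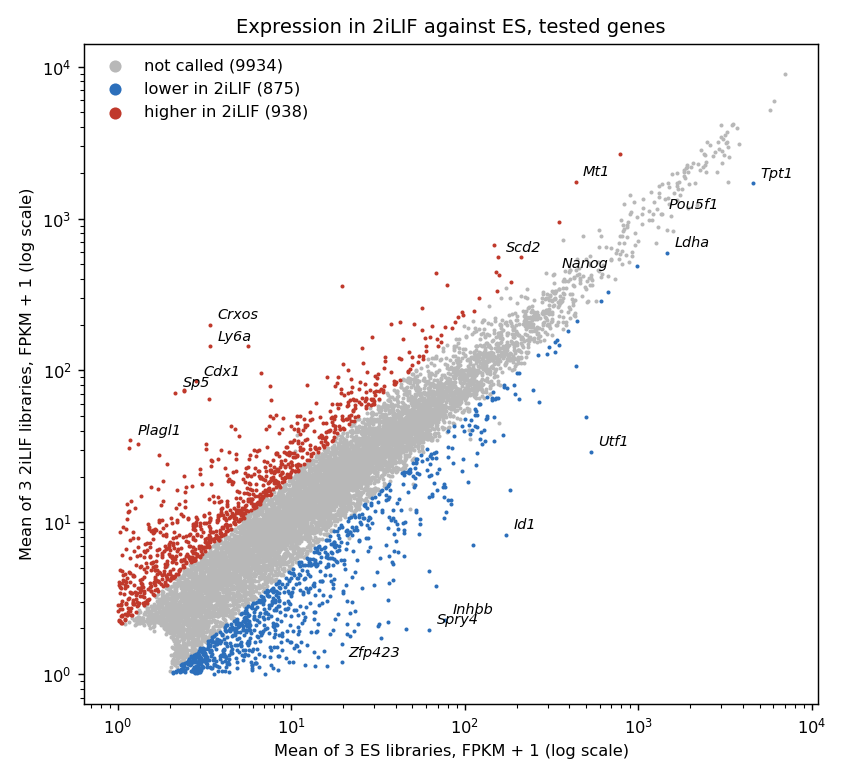
Mean FPKM + 1 of the tested genes in the ES libraries (horizontal, log scale) against the 2iLIF libraries (vertical, log scale), with 1 point per gene coloured by call. The 938 higher genes lie above the diagonal and the 875 lower genes below it, with Sp5 and Ly6a far above and Inhbb and Spry4 far below.

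The rise with the largest log2 difference was that of Crxos. Its transcript was at 1.70, 2.03 and 3.48 FPKM in the ES libraries and 196, 204 and 198 in the 2iLIF libraries, a difference of 5.91 ± 0.18. Every 2iLIF library was far above every ES library. Crxos overlaps Crx, and as the use of strand in counting is unknown, its single value is uncertain. Ly6a, the surface antigen Sca-1 of haematopoietic stem cells, was at 2.53, 2.40 and 2.31 FPKM in the ES libraries and 128, 149.8 and 151 in the 2iLIF libraries (5.39 ± 0.08). Ly6a thus moved from a trace in ES to a strong signal in all 3 2iLIF libraries. Trpm1, a cation channel of melanocytes and retina, rose from 1.43 ± 0.105 to 73.8 ± 4.95 FPKM. S100a1 and S100a13, calcium-binding proteins whose genes are neighbours, rose from 1.41 ± 0.467 to 72.4 ± 10.3 FPKM and from 4.63 ± 0.739 to 144 ± 8.26 FPKM. Plagl1, an imprinted zinc finger factor, rose from 0.184 ± 0.0589 to 33.6 ± 4.40 FPKM (4.86 ± 0.10).

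Among the falls, Inhbb, which encodes the βB subunit of activin and inhibin and lies on chromosome 1, had the largest log2 difference. It stood at 79.9, 72.8 and 76.3 FPKM in the ES libraries and 1.24, 1.26 and 1.33 in the 2iLIF libraries (-5.08 ± 0.06). The fall took it from a well-expressed gene to about the filter level in each 2iLIF library. Zfp423, a zinc finger factor of BMP and neural development, fell from 18.5 ± 2.03 to 0.194 ± 0.00827 FPKM. Slc39a14, a zinc and iron importer, fell from 31.9 ± 1.31 to 0.736 ± 0.0590 FPKM, Slc7a7, a transporter of cationic amino acids, from 67.4 ± 2.83 to 2.79 ± 0.119 FPKM, and Enox1, an oxidase of the cell surface, from 35.3 ± 0.445 to 1.22 ± 0.0925 FPKM. All 3 of these lie on chromosome 14.

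Measured by the change in mean FPKM, other genes lead. The metallothioneins Mt2 and Mt1, small metal-binding proteins, had the largest gains, and Apoe, a lipid carrier protein, came next. Apoe was at 402, 315 and 321 FPKM in the ES libraries and 1091, 877 and 879 in the 2iLIF libraries (1.45 ± 0.13). Ckb, the brain form of creatine kinase, rose from 147 ± 10.1 to 667 ± 67.4 FPKM, and Cstb, an inhibitor of cathepsins, from 67.5 ± 4.05 to 435 ± 16.8 FPKM (2.67 ± 0.07). On the other side, Tpt1, a translation-linked protein encoded on chromosome 14, fell from 4594 ± 92.8 to 1706 ± 37.6 FPKM. Tmsb4x, a thymosin that binds actin monomers, was at 424, 528 and 538 FPKM in the ES libraries and 40.2, 48.8 and 55.4 in the 2iLIF libraries (-3.34 ± 0.14). The loss of Tmsb4x was seen in all 3 libraries, with no value near the ES range.

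Canonical WNT targets are the genes that β-catenin and TCF factors switch on. Of 16 tested genes (26 listed), 8 were higher in 2iLIF and 2 lower, and the median log2 difference was 1.04. Of these 16, 3 were under 1 FPKM in every ES library and passed the filter through 2iLIF alone, so they had to differ. Windows upstream of 2 targets that rose are shown because they hold the core letters bound by TCF and LEF factors, CTTTGAT or CTTTGAA on either strand. They are the 250 bases before the RefSeq start (build GRCm38.p6), written along the strand of the gene, with the match in capitals.
Sp5 (chr2:70474673-70474922, plus strand, match ending 98 bases before the start): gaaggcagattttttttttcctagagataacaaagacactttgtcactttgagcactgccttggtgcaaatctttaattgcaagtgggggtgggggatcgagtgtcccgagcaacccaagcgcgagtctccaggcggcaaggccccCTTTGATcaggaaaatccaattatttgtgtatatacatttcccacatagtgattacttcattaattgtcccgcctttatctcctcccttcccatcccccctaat
T (chr17:8434173-8434422, plus strand, match on the other strand ending 229 bases before the start): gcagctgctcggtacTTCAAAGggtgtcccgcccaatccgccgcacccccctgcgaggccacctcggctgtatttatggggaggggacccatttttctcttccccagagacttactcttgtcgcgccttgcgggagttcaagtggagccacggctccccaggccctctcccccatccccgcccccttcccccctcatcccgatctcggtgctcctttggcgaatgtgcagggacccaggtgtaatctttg

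The match is a description of these letters and not a bound site. Over all 11817 RefSeq windows of tested genes, from 250 bases before to 50 after the start, 5.64% held one of these motifs, against 3 of 13 windows of the WNT targets, those of Sp5, T and Tnfrsf19. Windows of genes that rose held it in 7.69% and those of genes that fell in 5.52%.

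Sp5, a zinc finger factor induced directly by β-catenin, was at 1.15, 1.11 and 1.20 FPKM in the ES libraries and 77.5, 65.7 and 67.6 in the 2iLIF libraries. Its log2 difference was 5.05 ± 0.08, with a wide gap between the media. Cdx1, a caudal-type homeobox factor of the posterior body and gut, was at 2.06, 1.59 and 1.88 FPKM in the ES libraries and 90.8, 78.3 and 81.9 in the 2iLIF libraries (4.90 ± 0.09). Again no 2iLIF library came near the ES range. Axin2, the feedback inhibitor that rebuilds the destruction complex, was at 2.60, 2.05 and 2.05 FPKM in the ES libraries and 35.5, 29.8 and 30.0 in the 2iLIF libraries (3.34 ± 0.10). Nkx1-2, a homeobox factor of posterior progenitors, rose from 0.158 ± 0.0159 to 29.9 ± 0.850 FPKM. T (Brachyury), the mesoderm factor, rose from 0.190 ± 0.0187 to 12.7 ± 0.854 FPKM (3.53 ± 0.07), Cdx2 from 0.109 ± 0.0309 to 2.85 ± 0.118 FPKM and the receptor Tnfrsf19 from 1.37 ± 0.195 to 4.06 ± 0.322 FPKM. Bmp4, on chromosome 14, and Ascl2 moved against the list. Ccnd1, the cyclin often given as a WNT target, differed by -0.49 ± 0.06 and was not called.

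Of the WNT ligands, receptors and inhibitors, 5 of 30 tested genes (37 listed) were higher and 3 lower, with a median of 0.20. In the close libraries alone, without replicate 1 of both media, 3 were higher. Of the 30, 4 passed the filter through 2iLIF alone, Wls and Wnt5b among them, and 3 through ES alone, Wnt6 among them, so these had to differ. Wls, which carries WNT proteins to the cell surface, rose (1.83 ± 0.19), and so did the receptor gene Fzd10 (1.30 ± 0.09). Wnt5b, a ligand, rose (1.46 ± 0.07). Wnt6, another ligand, fell from 7.33 ± 0.643 to 0.499 ± 0.0712 FPKM. Tcf7l1, the repressor that β-catenin displaces from pluripotency genes, was at 27.9 ± 1.61 FPKM in 2iLIF against 25.6 ± 0.956 in ES and was not called.

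Genes induced by ERK, most of them feedback inhibitors, were lower in 9 of 24 tested genes (27 listed) and higher in 1 (2 without 2iLIF replicate 2 or 3 or ES replicate 1), with a median of -0.81. Spry4, a Sprouty inhibitor of receptor tyrosine kinase signalling, was at 63.5, 61.7 and 59.4 FPKM in the ES libraries and 1.09, 0.884 and 0.903 in the 2iLIF libraries (-5.00 ± 0.07). It went from high levels to the filter level in every 2iLIF library. Dusp6, the phosphatase that removes ERK's activating phosphates, was at 42.2, 36.6 and 34.7 FPKM in the ES libraries and 4.45, 4.20 and 4.39 in the 2iLIF libraries (-2.86 ± 0.08). Etv4, an ETS factor switched on by FGF, was at 91.2, 76.8 and 78.5 FPKM in the ES libraries and 14.1, 13.1 and 12.2 in the 2iLIF libraries (-2.56 ± 0.09). The ranges of all 3 genes were well separated. Spry2, on chromosome 14, fell from 124 ± 2.21 to 38.5 ± 2.28 FPKM, Egr1, a zinc finger factor of the early response, from 11.6 ± 0.830 to 4.77 ± 0.577 FPKM, and Ier3, an early response gene (-1.90 ± 0.12). Etv5, the close relative of Etv4, differed by only -0.15 ± 0.07 and was not called. Fos, whose promoter ERK also controls, went the other way, at 2.17, 1.87 and 1.55 FPKM in the ES libraries and 8.43, 6.75 and 6.88 in the 2iLIF libraries (1.55 ± 0.11). The Fos libraries did not overlap, although replicates varied.

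Other immediate early genes showed no common direction. Of 17 tested genes (21 listed), 2 rose (Fos and Klf6) and 2 fell (Junb and Egr1). FGF ligands and receptors were lower in 5 of 14 tested genes (32 listed) and higher in 0, and 5 of the tested genes passed the filter through ES alone. Fgf15 fell from 11.1 ± 0.879 to 0.151 ± 0.0713 FPKM, Fgf17, on chromosome 14, from 38.3 ± 3.16 to 5.43 ± 0.506 FPKM, and the receptor gene Fgfr3 from 4.97 ± 0.324 to 0.0694 ± 0.00496 FPKM. Fgf4, the main FGF of these cells, was at 88.8 ± 3.10 FPKM in 2iLIF against 85.3 ± 2.54 in ES and was not called.

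Myc, a growth-promoting factor downstream of ERK, WNT and STAT3, was at 39.9, 35.5 and 36.7 FPKM in the ES libraries and 4.70, 4.33 and 4.41 in the 2iLIF libraries (-2.81 ± 0.07). The libraries of the media lay far apart. Mycn, its relative, fell from 52.1 ± 3.38 to 20.1 ± 2.03 FPKM and Odc1, the polyamine enzyme that MYC induces (-1.33 ± 0.15). No gene of this network of 17 rose. Ribosome biogenesis genes, many of them MYC targets, had 0 called genes among 38 and a median of -0.34, with 26 lower and 2 higher at an unadjusted limma p under 0.05. Over all tested genes 33.1% were lower and 36.9% higher at that threshold.

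**Figure D2:**
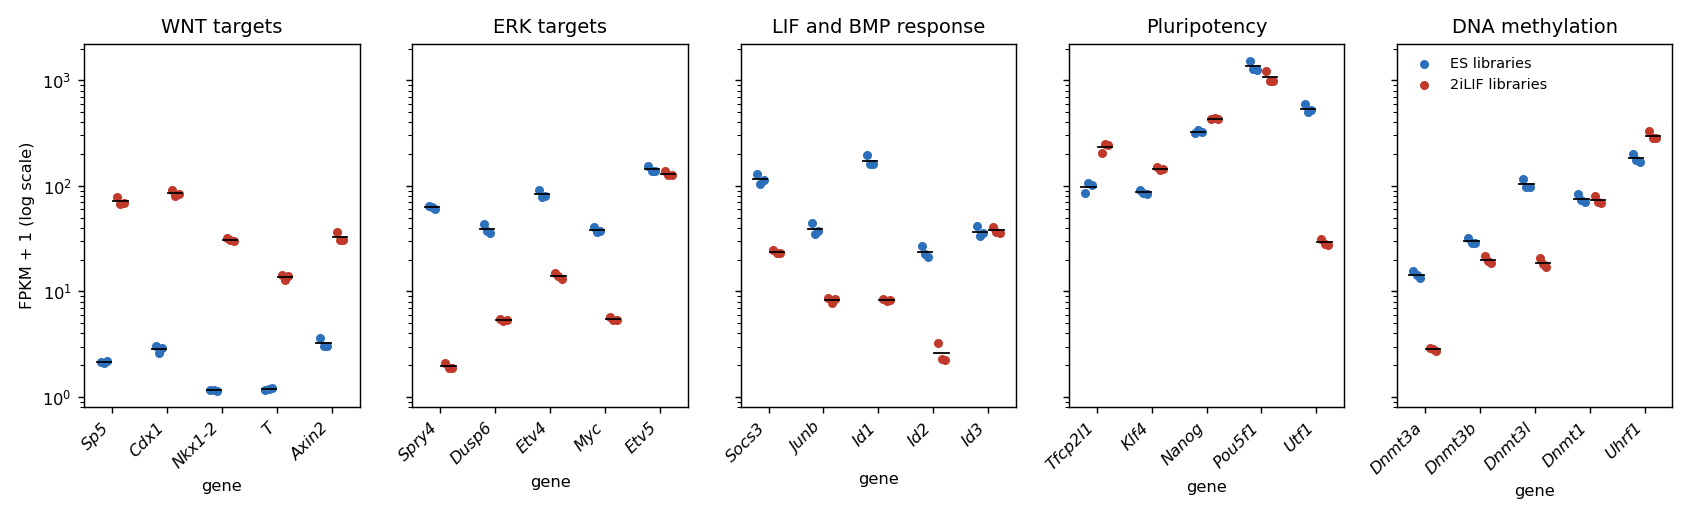
FPKM + 1 (vertical, log scale) in each of the 6 libraries for WNT targets, ERK targets, LIF and BMP response genes, pluripotency factors and DNA methylation genes; points are libraries coloured by medium and bars are means. Sp5, Axin2 and T are higher in all 3 2iLIF libraries and Spry4, Dusp6, Socs3 and Id1 lower in all 3, while the points of Id3 overlap.

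LIF was present in both media. The list of LIF and STAT3 genes was lower in 5 of 20 tested genes (21 listed) and higher in 0, with a median of -0.08. It does not hold every gene downstream of LIF. Tfcp2l1, counted with the naive factors below, rose (1.24 ± 0.11). Socs3, the STAT3-induced brake on the LIF receptor, was at 129, 104 and 114 FPKM in the ES libraries and 23.8, 22.1 and 22.0 in the 2iLIF libraries (-2.30 ± 0.09). Junb, an AP-1 subunit, was at 43.8, 33.7 and 36.3 FPKM in the ES libraries and 7.67, 6.70 and 7.57 in the 2iLIF libraries (-2.22 ± 0.11). Both genes were lower in each 2iLIF library than in any ES library. Cish, another SOCS family inhibitor, fell (-1.44 ± 0.08) and so did Pim3, a kinase (-1.25 ± 0.09). Stat3 itself was at 34.2 ± 1.78 FPKM in 2iLIF against 31.8 ± 1.37 in ES and was not called.

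BMP signalling, for which serum is a source, induces the ID genes, inhibitors of basic helix-loop-helix factors. Of 17 tested genes of this response, 5 were lower and 2 higher. Id1 was at 195, 160.4 and 161 FPKM in the ES libraries and 7.56, 7.08 and 7.26 in the 2iLIF libraries (-4.38 ± 0.09). Id2 was at 25.7, 21.5 and 20.2 FPKM in the ES libraries and 2.23, 1.29 and 1.26 in the 2iLIF libraries (-3.19 ± 0.16). Id3 was at 40.6, 32.3 and 34.5 FPKM in the ES libraries and 40.2, 35.4 and 35.1 in the 2iLIF libraries (0.05 ± 0.10) and was not called. The ID genes thus split: Id1 and Id2 fell without overlap, Id3 overlapped, and Id4 rose from 2.45 ± 0.235 to 17.0 ± 1.51 FPKM. Dusp9, a BMP-induced phosphatase of ERK, fell from 74.8 ± 5.19 to 9.63 ± 0.564 FPKM. Bmp4 (chromosome 14) fell from 54.6 ± 6.49 to 9.54 ± 0.904 FPKM, whereas Bmp7 rose (1.66 ± 0.09).

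The NODAL and activin genes had 1 higher and 4 lower of 17 tested genes (20 listed), a count that drops to 2 lower genes when chromosomes 1, 14 and Y are left out. Beside Inhbb, the antagonist Lefty1, also on chromosome 1, fell from 41.9 ± 2.56 to 11.1 ± 0.447 FPKM, and Skil, a SMAD corepressor (-1.27 ± 0.07). Fst (follistatin), which binds activin, rose from 0.809 ± 0.0423 to 9.38 ± 0.776 FPKM. The ligand Nodal differed by 0.82 ± 0.09 and was not called. Among YAP targets 4 of 17 rose, with Ctgf at 1.89 ± 0.07, Amotl2 at 1.86 ± 0.09 and Cyr61 at 1.12 ± 0.09, and 3 fell. Those 3 are all on chromosomes 1 or 14, since 0 were lower without those chromosomes.

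Retinoic acid genes moved both ways, 5 higher and 5 lower of 18 tested genes (27 listed). Crabp1, a carrier that holds retinoic acid in the cytoplasm, was at 56.7, 52.1 and 51.8 FPKM in the ES libraries and 7.96, 7.44 and 6.75 in the 2iLIF libraries (-2.70 ± 0.08). Rarg, a retinoic acid receptor, was at 74.9, 64.6 and 66.5 FPKM in the ES libraries and 16.6, 14.6 and 14.7 in the 2iLIF libraries (-2.10 ± 0.08). Both were lower in every 2iLIF library. Of the genes that rose, Meis2 went from 0.164 ± 0.00987 to 10.9 ± 0.0549 FPKM and Dhrs3, which reduces retinal, from 0.649 ± 0.212 to 2.86 ± 0.221 FPKM.

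Core pluripotency genes are mostly those shared by naive and later pluripotent cells, while Zfp42 is more a marker of the naive state. Of 20 tested, 0 were higher and 4 lower (median -0.54). Pou5f1 (OCT4) was at 1539, 1269 and 1247 FPKM in the ES libraries and 1212, 992 and 987 in the 2iLIF libraries, a difference of -0.35 ± 0.12. Sox2, Nanog and Zfp42 differed by -0.49 ± 0.06, 0.41 ± 0.05 and -0.40 ± 0.09. None of these factors was called, and all 3 Pou5f1 values in 2iLIF were below those in ES. Utf1, a chromatin-bound protein of undifferentiated cells, was at 592, 494 and 522 FPKM in the ES libraries and 30.5, 27.3 and 26.5 in the 2iLIF libraries (-4.20 ± 0.09). Lin28a, which blocks maturation of let-7 microRNAs, was at 82.6, 102 and 102 FPKM in the ES libraries and 18.4, 22.3 and 21.6 in the 2iLIF libraries (-2.15 ± 0.11). Utf1 and Lin28a fell without overlap, and Dppa4 and Lin28b fell (-1.48 ± 0.07 and -1.46 ± 0.09).

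Factors of the naive state were mostly short of the fold limit. Of 19 tested, 3 were higher and 2 lower, with a median of 0.42, and without 2iLIF replicate 1 only 1 was lower. Tfcp2l1, a factor downstream of both LIF and β-catenin that lies on chromosome 1, was at 84.8, 106 and 101 FPKM in the ES libraries and 205, 247 and 241 in the 2iLIF libraries (1.24 ± 0.11). Prdm14, Klf4, Tbx3, Nr5a2, Klf2 and Esrrb had differences of 0.88 ± 0.06, 0.73 ± 0.06, 0.71 ± 0.08, 0.59 ± 0.08, 0.36 ± 0.08 and 0.23 ± 0.08. All 6 were on the side of 2iLIF and none was called. Klf5, on chromosome 14, was at -0.90 ± 0.07 and not called. Gbx2, a homeobox factor of chromosome 1, was at 69.3, 60.7 and 61.3 FPKM in the ES libraries and 15.7, 13.2 and 14.2 in the 2iLIF libraries (-2.08 ± 0.09). Gbx2 therefore fell against the direction of the list median.

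Genes of the formative and primed epiblast, the states that follow the naive one, were lower in 10 of 19 tested genes (26 listed) and higher in 3 (median -1.44). Here 5 of the tested genes passed the filter through ES alone. Tcf15, a factor of cells leaving the naive state, was at 107, 107 and 116 FPKM in the ES libraries and 6.02, 5.71 and 6.44 in the 2iLIF libraries (-3.97 ± 0.07). Pou3f1 (OCT6), which marks the primed epiblast, was at 5.25, 5.02 and 5.39 FPKM in the ES libraries and 0.210, 0.139 and 0.226 in the 2iLIF libraries (-2.38 ± 0.06). Foxp1, a forkhead factor, fell (-2.58 ± 0.07). The list still held exceptions. Sall3 and Zic2 rose (1.65 ± 0.08 and 1.43 ± 0.08), and Otx2, a main factor of this state that lies on chromosome 14, was at 3.79 ± 0.251 FPKM in 2iLIF against 6.10 ± 0.291 in ES and was not called.

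DNA methylation is known to be low in ground-state cells. Among its enzymes and regulators, 2 of 19 tested were lower and 0 higher, both of them in the de novo arm. Dnmt3l, the cofactor that stimulates the de novo methyltransferases, was at 116, 96.7 and 96.9 FPKM in the ES libraries and 19.6, 17.0 and 16.01 in the 2iLIF libraries (-2.49 ± 0.10). Dnmt3a, one of those enzymes, was at 14.5, 13.3 and 12.4 FPKM in the ES libraries and 1.94, 1.85 and 1.75 in the 2iLIF libraries (-2.34 ± 0.07). Each was lower in every 2iLIF library. Dnmt3b (-0.57 ± 0.08), the maintenance pair Dnmt1 and Uhrf1 (-0.05 ± 0.09 and 0.71 ± 0.09) and the demethylase Tet2 (0.66 ± 0.09) were not called.

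Polycomb subunits, which lay down and read repressive histone marks, were higher in 7 of 35 and lower in 2. Bmi1, a subunit of the first Polycomb complex, was at 1.25, 0.550 and 0.922 FPKM in the ES libraries and 7.22, 7.22 and 6.83 in the 2iLIF libraries (2.10 ± 0.13). Phc3, another subunit of that complex, rose as well (1.21 ± 0.08). Jarid2, which guides the second complex, fell from 108 ± 3.75 to 46.1 ± 0.719 FPKM. Ezh2, the methyltransferase of that complex, was at -0.63 ± 0.25 and was not called. Suz12, another of its subunits, was at 1.27 ± 0.36, counted among the higher genes, but its call was lost under 4 alternatives.

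HOX genes, classic Polycomb targets, were near silent in ES. Only 7 of 39 were tested, all 7 were higher in 2iLIF, and 6 of them passed the filter through 2iLIF alone. Summed over the 39 genes, the level was 4.39, 3.78 and 4.64 FPKM in the ES libraries and 40.5, 39.0 and 40.2 in the 2iLIF libraries. The sum was low in absolute terms in both media but did not overlap.

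Imprinted genes, expressed from one parental copy, had 3 higher and 6 lower of 26 tested genes (31 listed). Cdkn1c, a growth-restraining cell cycle inhibitor, was at 48.9, 42.5 and 42.7 FPKM in the ES libraries and 1.25, 0.920 and 0.780 in the 2iLIF libraries (-4.53 ± 0.11). Phlda2, its neighbour in the same imprinted cluster, was at 205, 172 and 167 FPKM in the ES libraries and 15.95, 15.3 and 14.8 in the 2iLIF libraries (-3.47 ± 0.09). Grb10, an adaptor that dampens insulin signalling, was at 54.2, 54.8 and 53.2 FPKM in the ES libraries and 8.82, 8.77 and 8.57 in the 2iLIF libraries (-2.50 ± 0.05). These 3 genes fell without overlap, whereas Plagl1, described above and part of the same list, rose (4.86 ± 0.10). Mest, an enzyme expressed from the paternal copy, fell (-1.95 ± 0.05), and Impact rose (1.86 ± 0.13). Meg3 was at 119.8 ± 11.96 FPKM in 2iLIF against 67.2 ± 5.30 in ES and was not called.

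The germ cell and meiosis list had 5 higher and 5 lower of 30 tested genes (49 listed). Kit, the receptor for stem cell factor, rose from 23.8 ± 1.03 to 74.2 ± 0.871 FPKM, and Dazl, which binds germ cell messenger RNAs, from 1.87 ± 0.294 to 7.28 ± 1.19 FPKM. Ddx4, a helicase of germ granules, fell from 4.77 ± 1.15 to 0.951 ± 0.309 FPKM, and Dnd1 (-1.47 ± 0.12). Stra8 and Sycp3, of meiotic entry and pairing, differed by 0.07 ± 0.09 and -0.32 ± 0.11 and were not called. The piRNA pathway, which silences transposons in the germline, was lower in 6 of 12 tested genes (20 listed) and higher in 1 (median -0.94). Piwil2, a PIWI protein that binds piRNAs, was at 5.59, 6.11 and 6.26 FPKM in the ES libraries and 1.22, 1.37 and 1.39 in the 2iLIF libraries (-1.59 ± 0.07). Mael and Tdrkh, both needed to make piRNAs, fell (-1.55 ± 0.14 and -1.52 ± 0.12), and Fkbp6, a cochaperone of the pathway, rose from 3.84 ± 0.294 to 20.6 ± 1.39 FPKM. Members of the pathway summed to 50.3, 58.7 and 55.6 FPKM in the ES libraries and 49.0, 51.9 and 52.1 in the 2iLIF libraries. These sums overlapped between the media, with Fkbp6 the largest part of the 2iLIF sums.

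Markers of other cell types were checked as whole lists, and a sum is also given without the member that moves it most, chosen after the values were seen. In bulk RNA, fewer cells of a type and less RNA per cell cannot be told apart. The neural list (12 of 23 tested) had 1 higher and 5 lower, and summed to 194, 174 and 174 FPKM in the ES libraries and 243, 203 and 199 in the 2iLIF libraries. The member that rose, Stmn2, a tubulin-binding protein, holds most of the 2iLIF sum. Without Stmn2 the list summed to 125, 114 and 117 FPKM in the ES libraries and 53.9, 48.1 and 46.3 in the 2iLIF libraries, the opposite direction. Gap43, Elavl3 and the tubulin Tubb3 fell (-3.60 ± 0.07, -2.74 ± 0.07 and -1.63 ± 0.08). The mesoderm list had 6 of 18 genes tested, with T, Gsc and Eomes higher and Bmp4 and Mesp2 lower, and summed to 72.2, 59.7 and 59.9 FPKM in the ES libraries and 43.2, 37.4 and 38.2 in the 2iLIF libraries. Without Bmp4, which holds most of the ES sum, it came to 10.1, 9.03 and 8.92 FPKM in the ES libraries and 32.7, 28.5 and 29.1 in the 2iLIF libraries, the opposite direction. T and Gsc passed the filter through 2iLIF alone and Mesp2 through ES alone. The trophoblast list (11 of 23 tested) had 4 higher and 2 lower, and summed to 308, 277 and 269.6 FPKM in the ES libraries and 148, 142 and 139 in the 2iLIF libraries. Of its tested genes, 2 passed the filter through 2iLIF alone (Cdx2 and Tfap2a) and 1 through ES alone (Ascl2), so these had to differ. Without Phlda2, which is also imprinted, it came to 103, 105 and 103 FPKM in the ES libraries and 132, 126 and 124 in the 2iLIF libraries, again the opposite direction. For primitive endoderm 12 of 22 were tested, and Apoe rose while Sox7 fell. Here 1 tested gene passed the filter through 2iLIF alone and 3 through ES alone, Sox7 among the latter. The primitive endoderm sum was 661, 561 and 566 FPKM in the ES libraries and 1371, 1148 and 1148 in the 2iLIF libraries, and without Apoe it was 259, 246 and 245 FPKM in the ES libraries and 279.9, 270.4 and 269 in the 2iLIF libraries. Among fibroblast markers 5 of 18 were tested, with Fn1 higher and Thy1 lower, and 2 of the 5, Thy1 among them, passed the filter through ES alone. Their sum was 147, 138 and 136 FPKM in the ES libraries and 319.9, 304 and 301 in the 2iLIF libraries, and without Fn1 it was 23.2, 20.1 and 20.6 FPKM in the ES libraries and 7.92, 7.13 and 7.23 in the 2iLIF libraries. Col1a1 and Col3a1 were at 0.168 ± 0.0435 FPKM in 2iLIF against 0.383 ± 0.0155 in ES and at 0.00167 ± 0.00290 FPKM in 2iLIF against 0.00206 ± 0.00356 in ES. Of the list of 2-cell-like cells 4 of 20 were tested, and their calls changed with the library left out (from 0 to 3 lower). The part of such cells in the differences of other genes was not tested.

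Genes of the lysosome and of autophagy were higher in 22 of 38 tested genes (40 listed) and lower in 0, with a median of 1.11 against 0.03 over all genes. Lysosomes digest proteins, lipids and sugars with acid hydrolases, and the factors TFEB, TFE3 and MITF drive these genes through the letters TCACGTGA near their starts. Windows upstream of 3 members that rose are shown because they hold these letters. Only members that rose were considered for display, so the windows shown say nothing on how often members with the letters rise. They are again the 250 bases before the RefSeq start in GRCm38.p6, along the strand of the gene, with the match in capitals.
Ctsa (chr2:164833523-164833772, plus strand, match ending 6 bases before the start): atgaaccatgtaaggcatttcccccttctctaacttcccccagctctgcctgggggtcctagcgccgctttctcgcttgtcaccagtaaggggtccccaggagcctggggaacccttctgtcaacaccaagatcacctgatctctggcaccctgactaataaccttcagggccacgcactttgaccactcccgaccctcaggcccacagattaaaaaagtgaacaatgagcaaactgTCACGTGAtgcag
Mcoln1 (chr8:3500269-3500518, plus strand, match ending 39 bases before the start): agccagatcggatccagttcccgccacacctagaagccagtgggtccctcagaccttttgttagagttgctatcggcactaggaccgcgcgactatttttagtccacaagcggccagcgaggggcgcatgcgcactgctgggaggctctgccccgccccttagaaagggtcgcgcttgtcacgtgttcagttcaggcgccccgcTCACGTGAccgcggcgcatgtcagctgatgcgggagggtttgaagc
Atp6v1a (chr16:44139260-44139509, minus strand, match ending 125 bases before the start): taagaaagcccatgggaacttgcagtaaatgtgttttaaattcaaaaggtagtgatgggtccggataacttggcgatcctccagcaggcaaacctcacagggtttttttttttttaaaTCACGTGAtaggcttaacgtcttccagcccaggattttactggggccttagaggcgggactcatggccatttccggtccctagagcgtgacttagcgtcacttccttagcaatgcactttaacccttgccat

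Of 36 RefSeq windows of 29 genes of the list, 6 held TCACGTGA on either strand (16.7%), those of Atp6v0d1, Atp6v1a, Ctsa, Ctsd, Gla and Mcoln1, against 1.90% of all 11817 windows. Among all tested genes the letters stood in 2.91% of windows of genes that rose and in 0.360% of windows of genes that fell, which is 28 of 962 and 3 of 834. The shorter CACGTG, which overlaps it, was in 11 of the 36 and in 10.4% of all. With a G before and a C after, the same letters were in 0 of the 36 windows and in 0.694% of all. A match says nothing of binding. In all 8 motifs were searched, each on both strands. The ETS motif CCGGAAGT was in 0 of 18 windows of ERK targets, in 8.34% of all, in 2.91% of those of higher genes and in 1.32% of those of lower genes. The sterol element TCACCCCAC was in 0 of 22 windows of cholesterol genes and in 0.584% of all. The metal response element (TGCGCNC or TGCACNC) was in 13 of 23 windows of metallothionein and zinc genes and in 36.4% of all, and the CArG box in 2 of 16 windows of AP-1 and immediate early genes and in 1.24% of all.

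Ctsa, a protease that also shields other hydrolases, was at 19.6, 16.2 and 16.8 FPKM in the ES libraries and 98.7, 83.2 and 85.3 in the 2iLIF libraries (2.28 ± 0.10). Mcoln1, the calcium channel of the lysosomal membrane, was at 12.3, 11.7 and 11.5 FPKM in the ES libraries and 30.6, 29.0 and 27.9 in the 2iLIF libraries (1.23 ± 0.06). Atp6v1a, a subunit of the proton pump, was at 26.8, 30.2 and 29.9 FPKM in the ES libraries and 68.6, 73.0 and 72.4 in the 2iLIF libraries (1.27 ± 0.07). Npc2, which hands cholesterol out of the lysosome, was at 41.1, 35.8 and 33.0 FPKM in the ES libraries and 223, 189.9 and 190.2 in the 2iLIF libraries (2.42 ± 0.10). The gap between the media was wide for Npc2 and Ctsa. Among other hydrolases, Ctsc rose from 1.99 ± 0.256 to 19.8 ± 1.43 FPKM, Ctsl from 33.9 ± 3.04 to 115 ± 5.52 FPKM and Hexa from 25.0 ± 1.80 to 111 ± 5.70 FPKM. Lamp2, a membrane protein that lines the organelle, rose from 6.46 ± 1.46 to 41.9 ± 5.41 FPKM. Of the factors, Mitf rose from 2.38 ± 0.221 to 9.01 ± 0.561 FPKM, while Tfeb and Tfe3 were at -0.81 ± 0.10 and -0.33 ± 0.07 and were not called. Summed over the list, the level was 1500.2, 1402 and 1385 FPKM in the ES libraries and 3126, 2943 and 2936 in the 2iLIF libraries. The lowest 2iLIF sum was well above the highest ES sum.

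**Figure D3:**
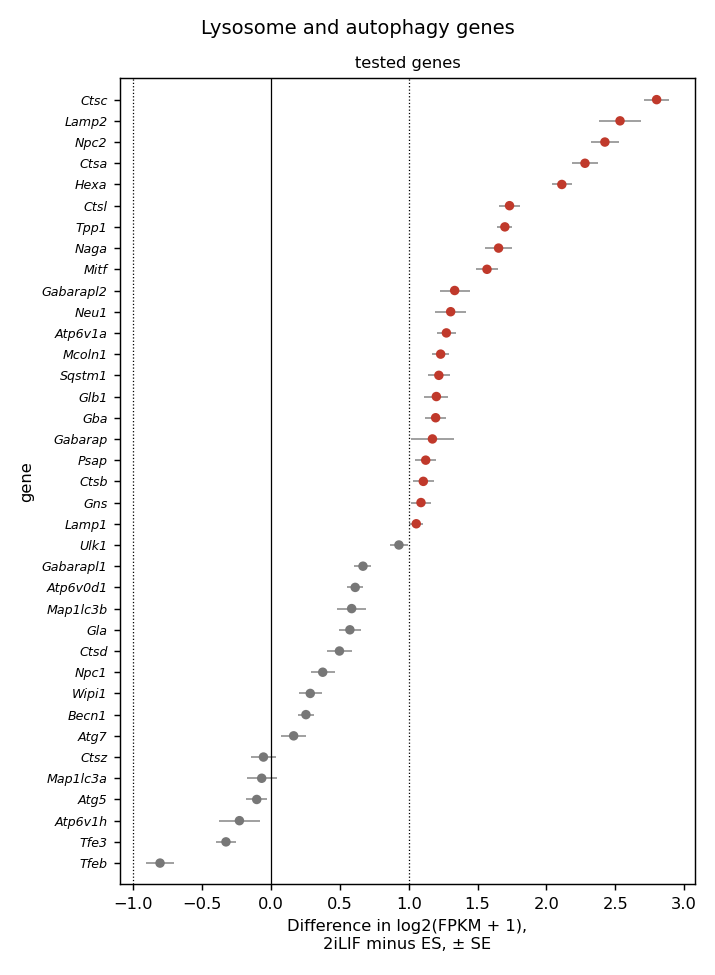
Difference in log2(FPKM + 1), 2iLIF minus ES, with its SE (horizontal), for tested genes of the lysosome and autophagy list (rows); coloured points are called genes and dotted lines mark the fold limit of 1 in each direction. The called genes shown all lie to the right, and Tfeb lies to the left of 0 without being called.

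Fatty acid synthesis and desaturation rose in 10 of 22 tested genes and fell in 0 (median 0.77). Scd1, the desaturase that makes oleate, was at 26.6, 30.0 and 28.6 FPKM in the ES libraries and 160.4, 171 and 163 in the 2iLIF libraries (2.50 ± 0.07). Scd2, its relative, was at 152, 157 and 156 FPKM in the ES libraries and 547, 558 and 563 in the 2iLIF libraries (1.84 ± 0.05). Both desaturases were higher in every 2iLIF library. Me1, which supplies NADPH, rose from 7.24 ± 0.473 to 27.4 ± 1.44 FPKM. The elongase Elovl6, the desaturase Fads2 and the controlling factor Srebf1 rose too (1.30 ± 0.17, 1.28 ± 0.10 and 1.18 ± 0.09). Fasn, the synthase itself, was at 0.32 ± 0.08 and was not called. Cholesterol synthesis was higher in 4 of 25, with the sterol sensor Insig1 at 1.25 ± 0.06 and the enzymes Tm7sf2 and Ebp at 1.54 ± 0.09 and 1.11 ± 0.07, and lower in 0.

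Glycolysis and lactate genes were lower in 7 of 25 and higher in 0 (median -0.71). Slc2a1, a glucose transporter, was at 485, 416 and 407 FPKM in the ES libraries and 117, 100.5 and 98.5 in the 2iLIF libraries (-2.04 ± 0.10). Ldha, which makes lactate, was at 1586, 1424 and 1399 FPKM in the ES libraries and 651, 569.6 and 562 in the 2iLIF libraries (-1.31 ± 0.09). The ES and 2iLIF ranges did not meet for either. Slc16a3, the lactate exporter, fell (-2.14 ± 0.09), and so did Pdk1, a kinase that inhibits pyruvate dehydrogenase (-2.16 ± 0.07). Slc2a3, another glucose transporter, was at 367, 369 and 359 FPKM in the ES libraries and 718, 731 and 721 in the 2iLIF libraries (0.98 ± 0.05). It lay just under the fold limit in the other direction, and passed it after quantile normalization and after scaling to the same sum.

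Several of the same glycolytic genes are known targets of hypoxia-inducible factor. That list had 8 lower and 2 higher of 21 tested genes (24 listed). Ndufa4l2, a mitochondrial protein, fell from 31.0 ± 3.20 to 1.12 ± 0.248 FPKM, Egln3, an oxygen-sensing hydroxylase (-3.62 ± 0.08), Ddit4, an inhibitor of mTORC1 (-2.52 ± 0.10) and Bnip3, a mitophagy receptor (-1.76 ± 0.16). Ak4 and the demethylase Kdm3a rose (2.15 ± 0.08 and 1.42 ± 0.14). Vegfa was at -0.24 ± 0.11 and was not called. In the mitochondrion, the TCA cycle had 1 higher (Idh2, 1.08 ± 0.09) and 0 lower of 27. Oxidative phosphorylation had 0 called of 73 (median -0.15), while at an unadjusted limma p under 0.05 and any size 27 were lower and 6 higher. The lower share is near that of all tested genes at this threshold (33.1%), while the higher share is well below it (36.9%).

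One-carbon metabolism moves methyl groups between folate, glycine and methionine. Of 25 tested genes, 7 rose and 1 fell. Dmgdh, which strips methyl groups from dimethylglycine, was at 0.369, 0.167 and 0.420 FPKM in the ES libraries and 33.2, 30.2 and 31.9 in the 2iLIF libraries (4.64 ± 0.09). Bhmt2 and Bhmt, which make methionine from homocysteine, rose from 0.132 ± 0.0615 to 12.3 ± 1.02 FPKM and from 0.146 ± 0.0339 to 10.8 ± 0.331 FPKM. The 3 genes are neighbours on chromosome 13, with 0 other protein-coding genes between them. Aldh1l1, a folate enzyme, rose (2.92 ± 0.12), and so did Cbs, of cysteine synthesis (1.52 ± 0.08). Tdh, the threonine dehydrogenase that mouse stem cells depend on, was at 0.25 ± 0.09 and was not called. It lies on chromosome 14.

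The amino acid response had 5 lower and 1 higher of 32 tested genes (33 listed). Asns, which makes asparagine, was the gene that rose, at 128, 171 and 172 FPKM in the ES libraries and 354, 468 and 460.1 in the 2iLIF libraries (1.44 ± 0.15). Phgdh, the first step of serine synthesis, fell (-1.58 ± 0.10), Mthfd2, a mitochondrial folate enzyme (-1.29 ± 0.06) and Stc2 (-2.02 ± 0.09). Asns thus moved opposite to the 5 targets that fell, and Atf4 itself differed by -0.24 ± 0.05 and was not called.

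**Figure D4:**
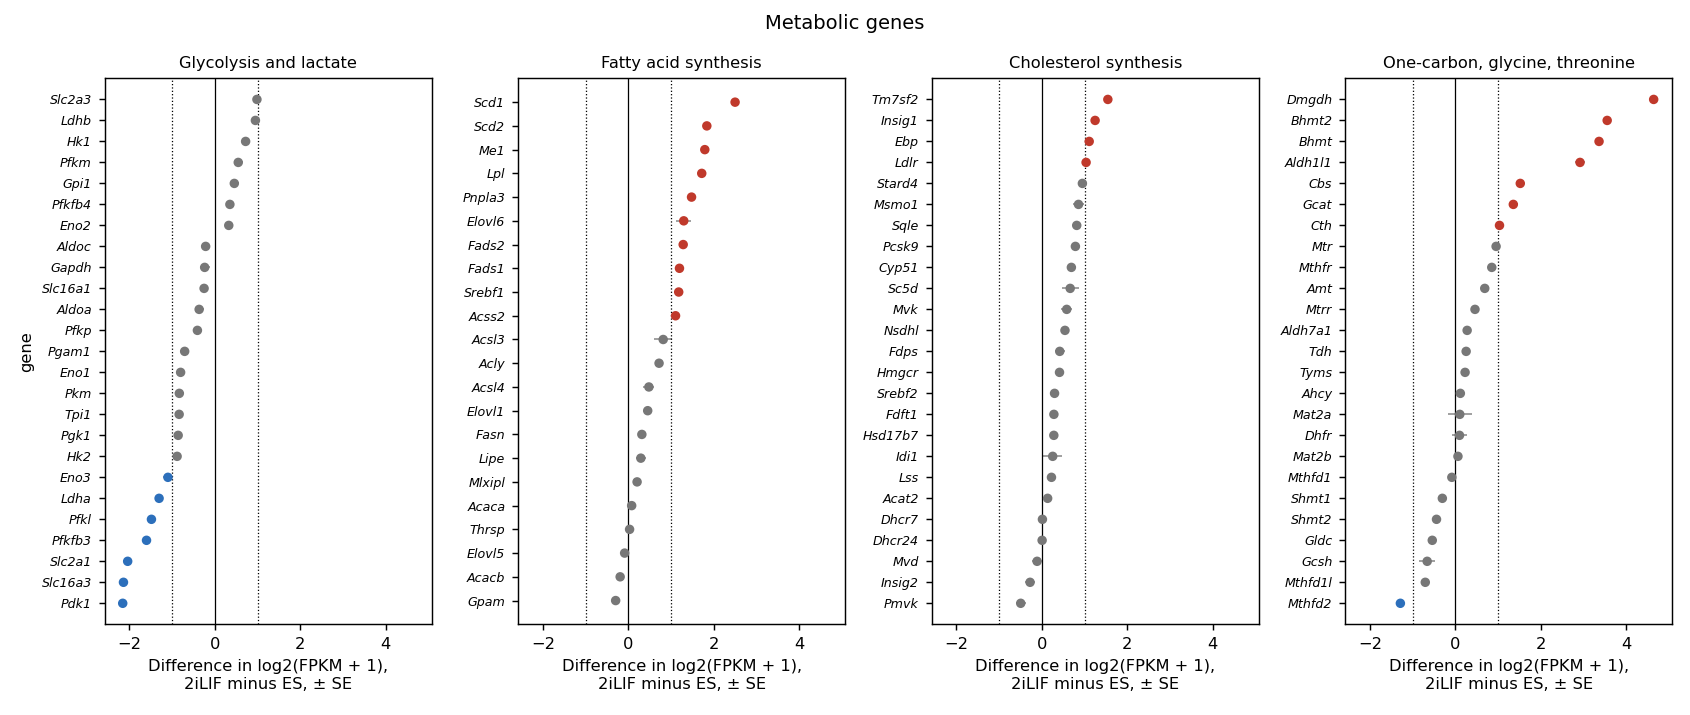
Difference in log2(FPKM + 1), 2iLIF minus ES, with its SE (horizontal), for each tested gene (rows) of 4 metabolic lists; coloured points are called genes and dotted lines mark the fold limit of 1. Called genes of glycolysis lie to the left only and those of fatty acid and cholesterol synthesis to the right only, and Dmgdh has the largest difference.

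Ribosomal proteins had 0 genes called by limma of 76, with a median of 0.03. At an unadjusted p under 0.05 and any size, 9 were higher and 8 lower, both below the shares of all tested genes (36.9% and 33.1%). DNA replication and mitosis had 0 called of 33 with a median of -0.32, and 19 were lower and 0 higher at an unadjusted p under 0.05, beside the same shares. Regulators of G1, the phase before DNA synthesis, did change, 3 higher and 4 lower of 23. Ccnd2 (cyclin D2) was at 15.2, 15.3 and 14.8 FPKM in the ES libraries and 0.127, 0.137 and 0.115 in the 2iLIF libraries (-3.84 ± 0.06). Ccne1 (cyclin E1), which starts DNA synthesis, was at 172, 163 and 162 FPKM in the ES libraries and 38.5, 35.5 and 36.2 in the 2iLIF libraries (-2.14 ± 0.06). Ccnd2 was nearly absent from 2iLIF. The inhibitors Cdkn1a (p21) and Cdkn2a (p16 and p19ARF) rose from 43.3 ± 3.82 to 160.2 ± 12.5 FPKM and from 3.74 ± 0.731 to 40.2 ± 5.01 FPKM, against the fall of Cdkn1c.

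Replication-dependent histone genes had 33 of 61 members tested, 26 lower and 0 higher, and 22 of the tested passed the filter through ES alone. Their messages mostly lack a poly(A) tail and are poorly caught by libraries of messenger RNA selected on it. The single copies share sequence, so the sum is given: 170.1, 123 and 189 FPKM in the ES libraries and 46.8, 35.3 and 52.6 in the 2iLIF libraries. The sums did not overlap. DNA replication and mitosis genes had no call, but 19 of 33 were lower and 0 higher at an unadjusted limma p under 0.05, against 33.1% and 36.9% of all tested genes.

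Targets of p53 had 2 higher and 5 lower of 24 tested genes (26 listed). The BCL2 family of cell death regulators had 7 lower and 0 higher of 16 (median -0.88). Here 2 of the tested genes passed the filter through ES alone, so they had to differ. Pmaip1 (NOXA) and Bbc3 (PUMA), BH3-only death promoters that belong to both lists, fell from 12.05 ± 0.970 to 0.892 ± 0.111 FPKM and from 25.9 ± 2.61 to 6.87 ± 0.360 FPKM. Bcl2l11 (BIM), a BH3-only protein that ERK marks for removal, fell (-1.59 ± 0.07), as did Bmf, Bok and Bik (-1.74 ± 0.08, -1.44 ± 0.12 and -1.23 ± 0.13). The 7 genes that fell all promote cell death or mitophagy. Perp, a membrane protein of the p53 response, fell (-2.73 ± 0.07).

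Metallothioneins and zinc transporters had 6 higher and 2 lower of 23 tested genes (29 listed), with a median of 0.57. Mt1 was at 485, 399.7 and 419 FPKM in the ES libraries and 1933, 1648 and 1676 in the 2iLIF libraries (2.01 ± 0.10). Mt2 was at 891, 689.6 and 771 FPKM in the ES libraries and 2919.9, 2473 and 2646 in the 2iLIF libraries (1.78 ± 0.11). Both were higher in every 2iLIF library and are induced by zinc and other metals. Slc30a2, which moves zinc out of the cytoplasm, rose from 6.503 ± 0.514 to 48.9 ± 2.52 FPKM. Mt3, the brain form, fell (-2.14 ± 0.14). Antioxidant genes of the NRF2 factor rose in 4 of 24 and fell in 0, among them Nqo1 (1.96 ± 0.06) and Gstm2 (2.16 ± 0.10). Selenoproteins had 1 higher (Dio3, 2.51 ± 0.10) and 1 lower (Selenop, -1.57 ± 0.09) of 22.

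Surface proteins used to sort stem cells rose in 7 of 20 tested genes (23 listed) and fell in 5. Beside Ly6a, Cd38, an NAD-degrading enzyme, rose from 2.96 ± 0.405 to 12.8 ± 1.20 FPKM, Cd63, a protein of endosomes, from 77.6 ± 0.634 to 363 ± 1.22 FPKM and Alpl, the alkaline phosphatase long used to stain these cells, from 48.4 ± 4.10 to 122 ± 8.10 FPKM. Thy1 fell from 14.4 ± 1.12 to 0.410 ± 0.0412 FPKM, Epcam, an epithelial adhesion protein, from 44.5 ± 2.26 to 9.003 ± 0.756 FPKM and Podxl (-1.97 ± 0.07). Calcium-binding proteins also split: S100a1 and S100a13 rose, while S100a6 fell from 81.9 ± 7.16 to 12.1 ± 0.577 FPKM and S100a10 (-1.27 ± 0.10).

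Of basement membrane and collagen genes 6 rose and 6 fell among 35 tested genes (81 listed). Fn1 (fibronectin), a ligand of integrins, was at 124, 118 and 116 FPKM in the ES libraries and 312, 297 and 293 in the 2iLIF libraries (1.33 ± 0.06). Tinagl1 and Nid1, of the basement membrane, rose (2.24 ± 0.08 and 1.83 ± 0.05). Loxl2, which crosslinks collagen, fell from 11.3 ± 0.412 to 0.552 ± 0.00782 FPKM, and the matrix proteases Mmp2 and Mmp14 fell (-2.30 ± 0.08 and -2.06 ± 0.11). Among adhesion receptors, Cdh1 (E-cadherin) was at 78.8, 76.3 and 72.8 FPKM in the ES libraries and 204, 185 and 183 in the 2iLIF libraries (1.32 ± 0.07). Cdh3 (P-cadherin) fell (-2.82 ± 0.09), and Itgav, an integrin that binds fibronectin, rose (1.61 ± 0.07). The 2 cadherins thus moved in opposite directions.

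Intermediate filaments and lamins, which stiffen the cell and its nucleus, were lower in 9 of 17 tested genes (62 listed) and higher in 3 (median -1.01), with only 1 higher when chromosomes 1, 14 and Y are left out. Lmna, encoding lamins A and C, was at 57.9, 47.2 and 48.1 FPKM in the ES libraries and 11.96, 10.2 and 10.8 in the 2iLIF libraries (-2.11 ± 0.10). All 3 2iLIF values lay far below the ES range. The keratin genes Krt17 and Krt19 fell from 30.7 ± 3.03 to 1.08 ± 0.218 FPKM and from 10.8 ± 1.23 to 1.27 ± 0.195 FPKM, whereas Krt8 rose (2.62 ± 0.08).

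**Figure D5:**
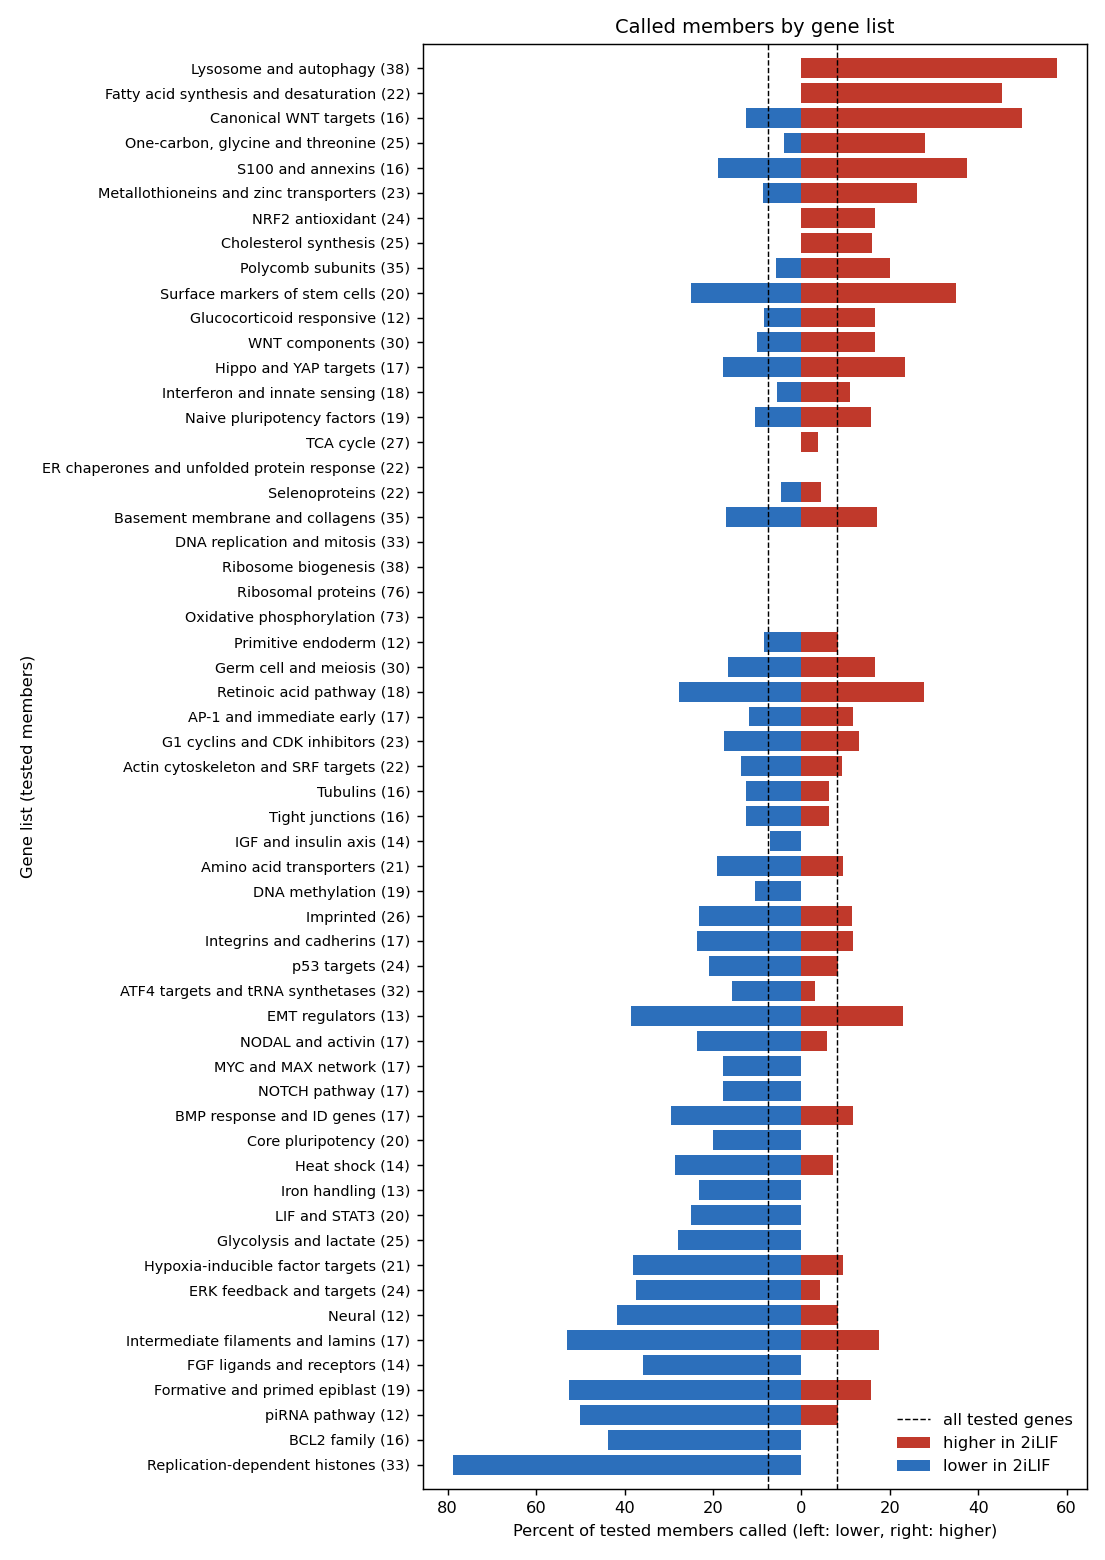
Percent of tested members called higher (bars to the right) and lower (bars to the left) in 2iLIF for each list with at least 12 tested genes, with dashed lines at the shares of all tested genes (7.99% and 7.45%). Lysosome and autophagy genes (22 higher, 0 lower of 38) and replication-dependent histones (0 higher, 26 lower of 33) lie at opposite ends.

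Y-linked genes, present in the male E14 line, were lower in ES. Of the 9 such genes, 4 were tested, and all 4 were higher in 2iLIF. Of these, 2 passed the filter through 2iLIF alone, so they had to differ, and 1 lost its call without 2iLIF replicate 2. Eif2s3y, a translation factor, was at 1.70, 3.70 and 3.44 FPKM in the ES libraries and 17.4, 36.0 and 33.4 in the 2iLIF libraries (2.90 ± 0.32). The 9 genes summed to 3.50, 7.04 and 6.12 FPKM in the ES libraries and 35.1, 62.9 and 58.7 in the 2iLIF libraries. The Y sums did not overlap, and the lower ES values stood in all 3 ES libraries. This difference, like the shifts on chromosomes 1, 14, 16 and X, separates the same libraries as the media and cannot be told from them. Without the genes of chromosomes 1, 14 and Y, 876 genes were higher and 737 lower, with chromosome 16 and X still included.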

How the data were processed

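Polyadenylated RNA of E14 cells was sequenced from stranded libraries, per the labels' protocols. The authors made the deposited FPKM values with STAR and Cuffnorm against mm9, per the submitters' processing notes; their versions, the annotation, any scaling between libraries and the handling of strand were not given in the sources used here. Counts were not part of the table. Since FPKM is relative to each library's total, a change in very abundant genes can move all others.

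Groups came from the labels. Values were taken as log2(FPKM + 1), genes reaching 1 FPKM in 3 or more of the 6 libraries were kept, and 1 limma model (limma 3.58.1, R 4.3.3, empirical Bayes with a trend) compared the media, with Benjamini-Hochberg adjustment over 11747 genes. The test was also run on simulated data with independent libraries, which cannot show whether its p-values hold if the real libraries are not independent. Fragments per library were estimated from the first step of the low values. Close libraries of a medium correlated at r = 0.9956 and 0.9966 across genes, against 0.9874 to 0.9895 with replicate 1, and no library pair was identical. Alternatives were other scalings, filters, pseudocounts and model settings, single libraries left out, and the close libraries alone, the last chosen after seeing the data.

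The gene lists were chosen with earlier results of these data known, so their counts are descriptions beside the background of all tested genes. Named genes were the 10 largest rises and falls at a mean of at least 5 FPKM, the 6 largest gains and losses of mean FPKM, up to 4 called genes per list and direction at a mean of 1 FPKM or more, and a set of key genes; not every one is printed. Atp6v1a, Bik, Bok, Cbs, Elovl6, Fads2, Hexa, Mcoln1, Mitf, Srebf1, Tfe3, Tfeb and Tnfrsf19 were named after their values were seen. A few list members are counted but not reported here by name. Chromosomes, neighbours and promoter windows came from RefSeq tables of GRCm38.p6, matched by symbol (24269 genes) or by a unique synonym (465), with 85 unmatched; the build differs from mm9, and coordinates are printed only for RefSeq windows.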

Additional observations from a re-analysis of the deposited data

How the results depend on the processing

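The 18 alternatives gave 0 genes called in the opposite direction. With genes of a mean of at least 5 FPKM only, 588 genes were higher and 434 lower; 8315 genes were then tested, and all of these calls were among those above. Leaving out 1 library gave 928 to 990 higher and 872 to 908 lower. A pseudocount of 0.1 gave 1301 higher and 1231 lower, quantile normalization 883 and 890, libraries scaled to the same sum 1016 and 821, and close libraries alone 936 and 875. Of 282 named genes that were called, 259 kept the call under every alternative that gave a value. The 23 that did not are not described by name as changed above, except that the lost call of Suz12 is stated, though counts of lists can include them. Of 134 counts for lists, 70 stayed within 1.5 times under every alternative. Where 0 is given above for core pluripotency, LIF and MYC genes that rose, and for ribosome biogenesis and DNA replication genes that fell, leaving out 1 library gave at most 1; for glycolysis genes that rose, quantile normalization and the same sum gave 2. Depth limits genes near 1 FPKM, and the labels do not show whether libraries of a medium are independent. With library numbers of 10 or more, which take in replicate 1 of both media, as a covariate, 940 genes were higher and 879 lower. The replicate numbers used here follow the order of deposit, which pairs nothing. No paired analysis was possible because the labels give the libraries no replicate numbers shared between the media.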
